A study of Mus musculus with 4 samples.

Results

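The 6 genes described here, Slc51a, Slc51b, Fabp6, Slc10a2, Fgf15 and Nr1h4, carry the uptake, transport and sensing of bile acids in the ileum. They were chosen by name, as the array probes whose symbol or an older synonym of it is one of these genes, among 16390 named genes on the array. Each had 1 probe, and Slc51a and Slc51b are listed on the array under their older names Osta and Ostb. Expression was measured in 4 samples of cells sorted from mouse small intestine, with 1 array for each sample.

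The Dclk1+ tumor sample came from intestinal tumors of 7 pooled Dclk1CreERT2/+; ApcMin/+ mice older than 16 weeks, and the Dclk1- tumor sample from 1 such mouse of 17 weeks. The Dclk1+ normal sample came from the small intestine of 2 pooled Dclk1CreERT2/+ mice of 26 weeks, and the Dclk1- normal sample from 1 such mouse of 26 weeks. All mice were male, and all 4 groups carry 1 Dclk1 allele with CreERT2, a Cre recombinase fused to a modified oestrogen receptor, expressed from the Dclk1 locus. ApcMin is a truncating allele of Apc, which restrains Wnt signalling, and mice that carry it develop intestinal adenomas. Dclk1 encodes a doublecortin-like kinase that marks tuft cells, the chemosensory cells of the gut epithelium. Genotype, age and histology differ together between the tumor and normal samples and cannot be told apart, and the labels do not say which stretch of small intestine was sampled. In both tissues the Dclk1+ sample is a pool of mice and the Dclk1- sample 1 mouse. Differences between Dclk1+ and Dclk1- cells thus cannot be told apart from differences between mice.

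Bile acids are made in the liver from cholesterol, secreted into the gut to aid fat absorption, and taken up again by enterocytes of the terminal ileum. Slc10a2 encodes the sodium-dependent transporter of the brush border that takes them up, Fabp6 the cytosolic ileal bile acid binding protein, and Slc51a and Slc51b the 2 subunits of the basolateral exporter OSTα-OSTβ. Inside the cell bile acids activate the nuclear receptor FXR, encoded by Nr1h4, which binds DNA with its partner RXR at inverted repeats of a hexamer and induces Fabp6, Slc51a, Slc51b and Fgf15. Fgf15 is a secreted hormone that reaches the liver and lowers the synthesis of bile acids.

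The upstream sequences of 4 of these genes are shown because their signals were lower together in Dclk1+ cells. Each run gives the 250 bases before the annotated gene start in RefSeq's GRCm38.p6 table, 5′ to 3′ on the gene's strand, and 5 of the 6 genes have an entry in that table. Capitals mark matches to 3 motifs, whose letters were set after the sequences had been read.
Slc51a, chr16:32487880-32488129, minus strand: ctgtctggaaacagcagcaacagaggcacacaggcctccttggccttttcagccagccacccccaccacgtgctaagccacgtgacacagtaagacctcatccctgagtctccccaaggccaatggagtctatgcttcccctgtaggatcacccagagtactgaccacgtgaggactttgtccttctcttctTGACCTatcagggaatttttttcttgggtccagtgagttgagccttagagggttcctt
Slc51b, chr9:65422774-65423023, minus strand: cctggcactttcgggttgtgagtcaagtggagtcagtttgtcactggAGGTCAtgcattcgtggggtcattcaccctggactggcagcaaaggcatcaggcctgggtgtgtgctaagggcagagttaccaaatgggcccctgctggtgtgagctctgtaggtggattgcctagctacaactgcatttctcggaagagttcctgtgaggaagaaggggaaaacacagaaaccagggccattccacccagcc
Fabp6, chr11:43601563-43601812, minus strand: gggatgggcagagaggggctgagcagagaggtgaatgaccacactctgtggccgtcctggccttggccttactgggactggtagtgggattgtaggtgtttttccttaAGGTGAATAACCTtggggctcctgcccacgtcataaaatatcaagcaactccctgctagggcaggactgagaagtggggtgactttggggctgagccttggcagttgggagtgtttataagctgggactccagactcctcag
Slc10a2, chr8:5105288-5105537, minus strand: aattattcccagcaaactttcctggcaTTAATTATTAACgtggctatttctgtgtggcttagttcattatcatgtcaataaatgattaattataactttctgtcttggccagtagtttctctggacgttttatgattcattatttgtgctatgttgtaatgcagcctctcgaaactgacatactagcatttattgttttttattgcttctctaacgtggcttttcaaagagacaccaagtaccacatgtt

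Both strands were searched. The hexamer AGGTNA followed by any 1 base and its reverse complement TNACCT, a form of the inverted repeat that FXR binds, matched the Fabp6 sequence at positions -142 to -130, as AGGTGAATAACCT. This repeat matched 0.0183% of the 32851 upstream sequences of that length in the table. The single hexamer AGGTCA matched at -203 to -198 in Slc51b and, on the other strand, at -58 to -53 in Slc51a, and 14.0% of all upstream sequences hold it. TTAAT followed by any 1 base and ATTAAC, part of the site of the hepatocyte nuclear factor HNF1, matched at -223 to -212 in Slc10a2 and in 0.0609% of all sequences. Because the letters were set after reading the sequences, the shares give no measure of how unexpected the matches are. These matches describe the sequence only, since no binding was measured here.

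Levels are given as normalised intensities, the authors' deposited values on a linear scale, and differences as log2 differences of background-corrected, quantile normalized intensities. The number of arrays limits the precision: with 1 array a group there was no test, and each difference is between 2 arrays. Fewer cells of a type and less RNA per cell cannot be told apart. A gene counted as above background once its spot was more than 2 SD over the average blank spot of that array. By that measure 5 of the 6 genes were above background in both tumor samples and in the Dclk1+ normal sample, and 6 of 6 in the Dclk1- normal sample. Between 63.3% and 70.9% of the 23473 probes were above background on the 4 arrays. Dclk1, the gene the samples are named for, had 61.8 in Dclk1+ and 9.49 in Dclk1- tumor cells, and 735.6 in Dclk1+ and 179.8 in Dclk1- normal cells. Its log2 difference of Dclk1+ minus Dclk1- was 0.69 in tumor and 1.41 in normal epithelium. The Dclk1- normal sample thus had a brighter Dclk1 signal than the Dclk1+ tumor sample.

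**Figure D1:**
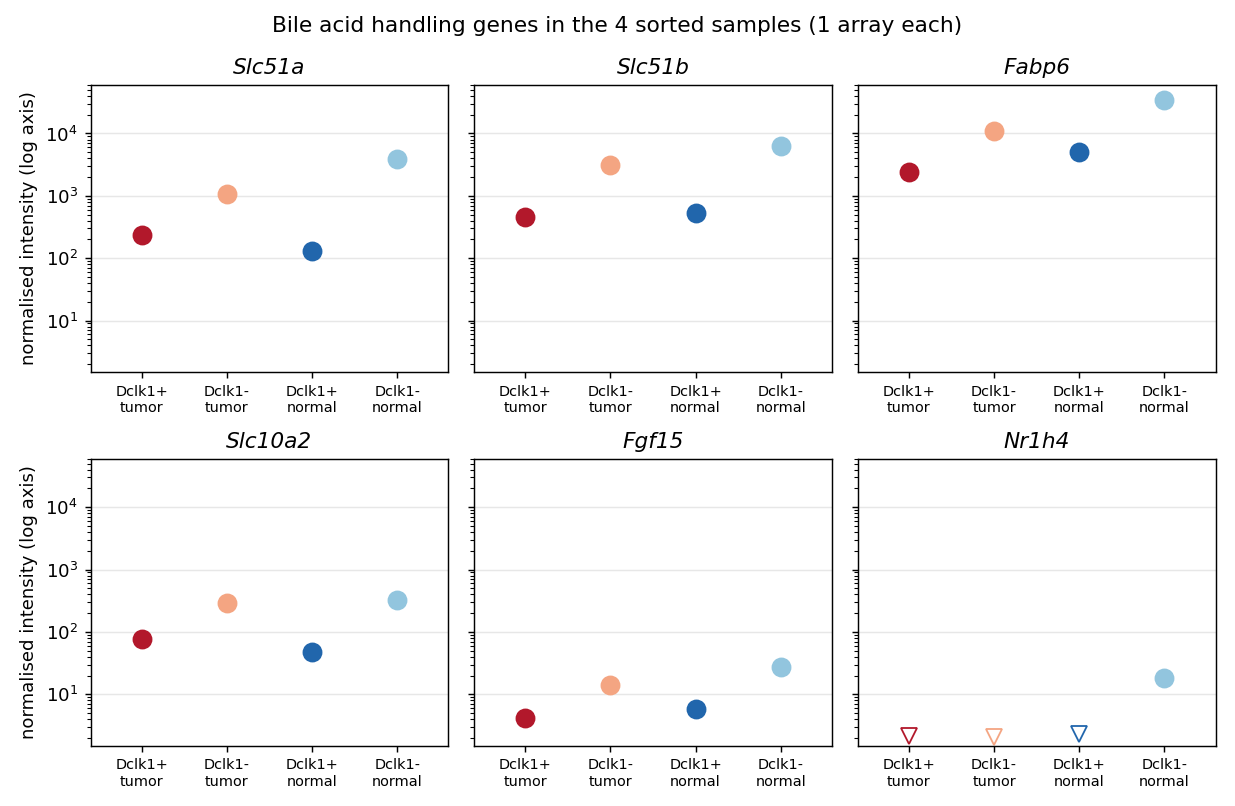
Normalised intensity (log axis) of each bile acid handling gene in the 4 samples, 1 array each. Filled circles are listed values and open triangles, at the lowest listed value of the array, mark samples in which the gene is not listed. In both pairs the Dclk1+ sample lies under the Dclk1- sample for Slc51a, Slc51b, Fabp6, Slc10a2 and Fgf15, and Nr1h4 is listed at 18.1 in Dclk1- normal cells alone.

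The exporter subunits were much dimmer in Dclk1+ than in Dclk1- cells of both tissues. Slc51a had a normalised intensity of 238.3 in Dclk1+ and 1078 in Dclk1- tumor cells, and of 130.5 in Dclk1+ and 3902 in Dclk1- normal cells. The 2 Dclk1+ samples were the low ones and the Dclk1- normal sample the highest. The log2 difference of Dclk1+ minus Dclk1- was -2.25 in tumor and -4.48 in normal epithelium, or 4.75-fold and 22.3-fold lower. The tumor value depends on the background: the spot of the Dclk1- tumor array had an intensity of 1113 against a local background of 1186, and with the local background subtracted the log2 difference was 0.46. The normal pair gave -4.33 under that setting.

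Slc51b had 457 in Dclk1+ and 3072 in Dclk1- tumor cells, and 526.4 in Dclk1+ and 6327 in Dclk1- normal cells. Its 2 Dclk1+ samples lay close together and both Dclk1- samples far above them. The log2 difference was -2.93 in tumor and -3.75 in normal epithelium. Only 3 of 12197 genes had a more negative difference in the tumor pair, against 67 of 12844 in the normal pair. These ranks favour bright genes, since the offset added to the intensities compresses the differences of dim ones. The subunits of the exporter thus were both lower in Dclk1+ cells, with Slc51b the more negative of the pair in tumor and Slc51a in normal epithelium.

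Fabp6, the cytosolic carrier, was lower in Dclk1+ cells too, but kept a bright signal there. It had 2410 in Dclk1+ and 10906 in Dclk1- tumor cells, and 4957 in Dclk1+ and 34101 in Dclk1- normal cells. The order of the 4 samples differed from that of Slc51a, with Dclk1+ tumor cells lowest. The log2 difference was -2.36 in tumor and -3.31 in normal epithelium, which is 5.13-fold and 9.92-fold lower. Its range over the other processings was -2.70 to -2.18 in tumor and -3.87 to -2.78 in normal epithelium.

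Slc10a2, the uptake transporter of the brush border, had 77.9 in Dclk1+ and 293.4 in Dclk1- tumor cells, and 47.7 in Dclk1+ and 330.1 in Dclk1- normal cells. The 2 Dclk1- samples were close to each other and above both Dclk1+ samples. The log2 difference was -1.50 in tumor and -1.85 in normal epithelium. Its signal is dim enough for the processing to set the size: subtracting the mean of the blank spots gave -2.16 and -2.97, and subtracting the local background -0.90 and -0.73.

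Fgf15, the hormone, was close to background in every sample. It had 4.17 in Dclk1+ and 13.9 in Dclk1- tumor cells, and 5.86 in Dclk1+ and 27.9 in Dclk1- normal cells. Dclk1+ samples were again lower. The log2 difference was -0.23 in tumor and -0.38 in normal epithelium, against -2.02 and -2.55 after subtraction of the blank spots. With the local background subtracted it was 0.01 in tumor and -0.16 in normal epithelium. The correction of background therefore moved its difference from slight to at least 4-fold, and its size cannot be read from these arrays.

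Nr1h4, the FXR gene, was not above background in Dclk1+ tumor, Dclk1- tumor or Dclk1+ normal cells, with spot intensities of 23.4, 23.5 and 21.1 against thresholds of 24.4, 25.7 and 22.2. It was above background in the Dclk1- normal sample, where the spot had 36.4 and the normalised intensity was 18.1. Dclk1+ normal cells were at least 1.21-fold lower than Dclk1- normal cells on the log2 scale with its offset. That log2 difference was -0.04 with the local background subtracted and -2.62 with the blank mean subtracted, so its size cannot be read. No difference could be given for the tumor pair, since both samples were below background.

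Of the 5 genes above background in the tumor pair, 3 (Slc51a, Slc51b and Fabp6) were 4-fold or more below Dclk1- cells in the Dclk1+ sample, where 0.287% of all 12197 genes were. None was 4-fold higher, where 0.435% of all genes were. At 2-fold there were 4, with Slc10a2 added, against 2.13% of all genes. In the normal pair 3 of 6 were at least 4-fold lower, the same 3 genes, where 2.16% of 12844 genes were, and 4 of 6 at least 2-fold lower, against 5.92%. Again 0 were 4-fold higher, where 1.61% of all genes were. Nr1h4 entered the normal pair through its Dclk1- sample alone. The median log2 difference was -2.25 over the 5 genes in tumor and -2.58 over the 6 in normal epithelium, and 0.01 over all genes in each pair. The offset compresses differences of dim genes, which holds these shares of all genes down. With the blank mean subtracted, 520 of 12197 genes in the tumor pair and 993 of 12844 in the normal pair were 4-fold lower. Under that setting 5 and 6 of the bile acid genes were.

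**Figure D2:**
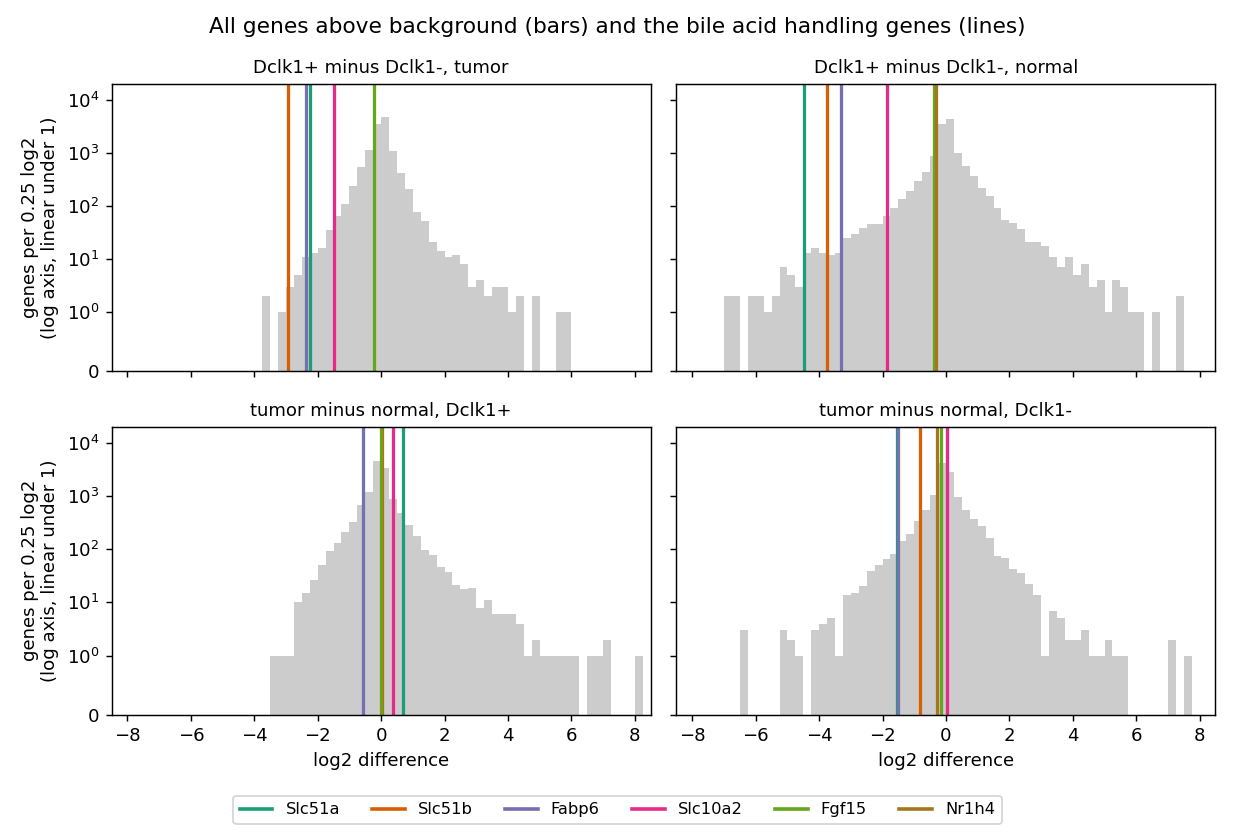
Number of genes (log axis) by log2 difference in each of the 4 comparisons, for genes above background on either array (grey bars), with coloured lines at the bile acid handling genes above background. In the tumor pair Slc51b, Fabp6, Slc51a and Slc10a2 lie between -2.93 and -1.50 on the Dclk1+ minus Dclk1- axis, and in the lower panels the lines lie between -1.55 and 0.68.

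The Dclk1+ minus Dclk1- differences of the 2 tissues share no array. Slc51a was less negative in tumor by 2.23 on the log2 scale, and the 6 other processings gave 2.23 to 4.79. For Fabp6 the tumor difference was less negative by 0.95 (0.50 to 1.49 over the other processings). For Slc51b the change was 0.83 and for Slc10a2 0.35. Of the other processings, only subtraction of the local background turned these 2 to the other side (-0.13 and -0.17). The median over all genes was -0.01. None of these changes could be tested. A smaller contrast in tumor was not particular to these genes. Of all genes, 35 of 12197 were 4-fold lower and 53 higher in the tumor pair. In the normal pair 277 of 12844 were lower and 207 higher.

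Set against normal epithelium of the same sort, tumor cells showed smaller differences in these genes. In Dclk1- cells, tumor was lower than normal by log2 differences of -1.55 for Slc51a (1078 in tumor, 3902 in normal), -1.51 for Fabp6 (10906 in tumor, 34101 in normal) and -0.81 for Slc51b (3072 in tumor, 6327 in normal). Slc10a2 was at 0.04. On this side 0 of 6 genes were 4-fold lower, where 1.3% of 12340 genes were (1.17% were 4-fold higher), and 2 of 6 were 2-fold lower, against 5.24%. For Slc51a the value was -5.30 with the local background subtracted. Fgf15 stood at -0.16 (13.9 in tumor, 27.9 in normal), and Nr1h4, not above background in Dclk1- tumor cells, was at least 1.18-fold lower there than in Dclk1- normal cells. The log2 difference of Nr1h4 was -0.05 with the local background subtracted and -2.62 with the blank mean subtracted.

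In Dclk1+ cells the tumor and normal samples were closer. Slc51a was at 0.68 (238.3 in tumor, 130.5 in normal), Slc10a2 at 0.39, Slc51b at 0.02, Fgf15 at -0.01 and Fabp6 at -0.56 (2410 in tumor, 4957 in normal). Of the 5 genes above background 0 were 2-fold lower, where 4.2% of 12869 genes were, and 0 were 2-fold higher, where 4.27% were. At 4-fold the shares of all genes were 0.42% lower and 1.17% higher. Slc51a was at -0.51 and Slc51b at -0.95 with the local background subtracted. The authors' values are not level between tumor and normal arrays (median log2 difference over all genes -0.37 in Dclk1+ and -0.45 in Dclk1- cells), and relative to that median Fabp6 was at -0.67 in Dclk1+ and -1.20 in Dclk1- cells. On that measure Slc51a (1.24) and Slc10a2 (1.08) were more than 2-fold higher in tumor in Dclk1+ cells, with Slc51b at 0.17 and Fgf15 at -0.12. In Dclk1- cells Slc51a was at -1.41, Slc51b at -0.59, Fgf15 at -0.56 and Slc10a2 at 0.28.

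**Figure D3:**
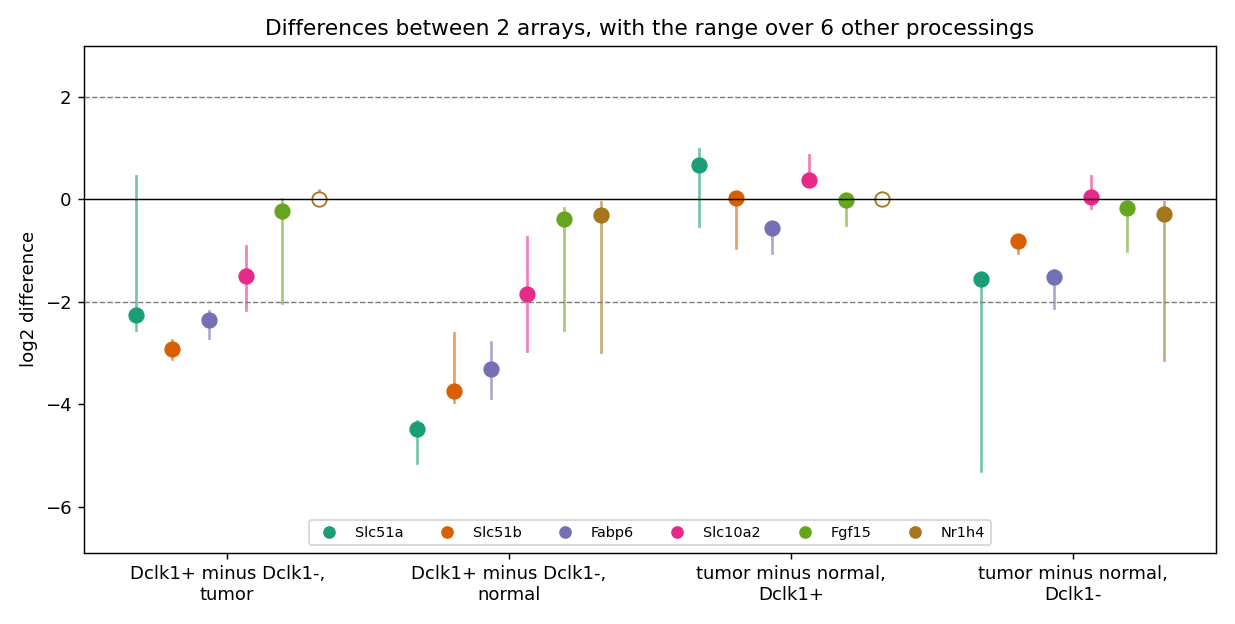
Log2 difference of each gene in the 4 comparisons (points) with the range over 6 other processings (vertical lines), with dashed lines at 4-fold. Open circles mark Nr1h4 where it was below background on both arrays. The range of Slc51b stays below -2 in both Dclk1+ minus Dclk1- comparisons, and that of Slc51a crosses 0 in the tumor pair, up to 0.46.

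Other genes of bile acid and sterol handling, 32 of 34 listed genes on the array, were close to level in the tumor pair. There 0 of the 26 above background were 4-fold apart, and the list median was -0.03, with Abcg5, a half-transporter that returns sterols to the lumen, at -1.28 (163.9 in Dclk1+, 411.7 in Dclk1-). In the normal pair 5 of 29 had signals 4-fold or more lower in Dclk1+ cells, and 0 were higher, with a median of -0.14. The lower genes included the glucuronosyltransferase Ugt2b34 (-3.53; 94.4 in Dclk1+ and 1705 in Dclk1-), Abcg5 (-3.39; 182 and 2364), the conjugate exporter Abcc2 (-2.88; 13.4 and 527.6) and the nuclear receptor Nr1i3 (-2.64; 10.4 and 411). Npc1l1, the cholesterol importer of the brush border and the fifth such gene, was at -2.63 (102 and 916.8).

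Single genes around FXR differed in direction. Nr0b2, which encodes the repressor SHP and is induced by FXR, was not listed in either Dclk1+ sample. It had 2.41 in Dclk1- tumor cells, which was not above background, and 15.9 in Dclk1- normal cells, which was. Of the RXR partners of FXR, Rxra ranged from 10.1 to 28.6 in the 4 samples. Rxrb had 293.3 in Dclk1+ and 156.4 in Dclk1- cells from tumor, and 447.9 in Dclk1+ and 151.4 in Dclk1- cells from normal epithelium, with log2 differences of 0.55 and 0.99. Abcc3, a basolateral exporter of conjugated bile acids and other organic anions, was brighter in Dclk1+ cells: the tumor pair had 137.2 (Dclk1+) and 69.5 (Dclk1-), and the normal pair 568 (Dclk1+) and 114.3 (Dclk1-). Its log2 difference was 0.48 in tumor and 1.57 in normal epithelium, the opposite direction to Slc51a and Slc51b. Abcc3, Rxra, Rxrb and Nr0b2 were singled out after their values were seen.

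Between Dclk1- tumor and Dclk1- normal cells 3 of 29 genes of the bile acid and sterol list were at least 4-fold lower in tumor and 0 higher. They were Npc1l1 (-3.12; 38.9 in tumor and 916.8 in normal), Abcg5 (-2.12; 411.7 and 2364) and Abcg8, the partner of Abcg5, which was not above background in tumor and at least 4.79-fold lower. The list median was -0.25. In Dclk1+ cells 0 of 27 were 4-fold apart between tumor and normal (median -0.15).

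The transcription factors of enterocyte identity and position gave 0 genes 4-fold apart among those above background in any of the 4 comparisons (14 of 17 on the array). Hnf4a, a nuclear receptor of enterocyte differentiation, had 335.5 in Dclk1+ and 311.9 in Dclk1- tumor cells, and 1021 in Dclk1+ and 1351 in Dclk1- normal cells. Gata4, which represses ileal bile acid genes in the mouse jejunum, was not above background in any sample, so its part was not tested. It was listed at 2.45 in Dclk1+ and 2.25 in Dclk1- normal cells and in neither tumor sample. Both factors, and Fabp1, Alb and Slc10a1 among the markers below, were singled out after their values were seen.

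Some other genes of the distal small intestine were also dimmer in Dclk1+ cells. In tumor 3 of 9 were at least 4-fold lower, the lectin-like Clec2h (-3.16; 427 in Dclk1+ and 3431 in Dclk1-), the membrane mucin Muc3 (-2.67; 127.7 and 932.7) and Lypd8 (-2.27; 316.9 and 1423), and 0 were higher, with a list median of -0.58 and a range up to 0.33. In normal epithelium 6 of 10 were lower, with a median of -2.73, led by the neurotensin gene Nts (-6.95) and the peptide YY gene Pyy (at least 31.2-fold), both of which are enteroendocrine markers too. The list ranged up to 0.00 there. Proximal genes had medians of -0.59 in tumor (2 of 12 at least 4-fold lower, 1 higher) and -2.91 in normal epithelium (7 of 12 lower, 0 higher). Whether the lower signals follow the region sampled was not tested.

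Some markers of absorptive enterocytes were lower in Dclk1+ cells as well. Of 14 markers above background in the tumor pair, Dclk1+ cells had 4 that were 4-fold or more lower and 0 higher, with a median of -1.0, and of 16 in the normal pair 8 were lower and 0 higher, with a median of -1.96. The others ranged up to 0.85 in tumor and 1.60 in normal epithelium, both for Fabp1. Krt20, a keratin of mature epithelium, was at -3.72 in tumor and -6.03 in normal epithelium, and Fabp2, the intestinal fatty acid binding protein, at -2.26 and -4.20. Between Dclk1- tumor and Dclk1- normal cells 5 of 16 were at least 4-fold lower in tumor, with a median of -1.72, beside a median of -0.55 for the 6 bile acid genes. Between Dclk1+ tumor and Dclk1+ normal cells 0 of 14 were 4-fold apart, and the median was -0.14.

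The summed normalised intensity of the 16 enterocyte markers on the array was 22457 in Dclk1+ and 24623 in Dclk1- tumor cells, and 87182 in Dclk1+ and 92539 in Dclk1- normal cells. Fabp1, the liver-type fatty acid binding protein, which is brighter in Dclk1+ cells (16026 and 6916 in Dclk1+ and Dclk1- tumor, 63956 and 14387 in Dclk1+ and Dclk1- normal), is the largest part of the sum in both Dclk1+ samples, while Fabp2 is the largest in both Dclk1- samples (7706 in tumor, 29981 in normal). Slc15a1 and Rbp2 were not above background in either Dclk1+ sample, nor was Treh in the tumor samples. The 12 tuft markers on the array summed to 18224 in Dclk1+ and 429.1 in Dclk1- tumor cells, and to 82167 in Dclk1+ and 406.9 in Dclk1- normal cells. The part of enterocyte content in the bile acid gene differences was not tested.

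In other epithelial lineages, at least 4-fold lower signals in Dclk1+ cells were found for 1 of 7 goblet, 1 of 4 Paneth and 0 of 8 enteroendocrine markers in tumor, and for 5 of 7, 3 of 4 and 6 of 9 in normal epithelium. In tumor 1 enteroendocrine marker, the secretin gene Sct, was higher (2.67). Set against normal, Dclk1- tumor cells had 2 of 7 goblet and 7 of 9 enteroendocrine markers at least 4-fold lower, and 2 of 4 Paneth markers higher. Dclk1+ tumor cells had 3 of 7 goblet and 3 of 4 Paneth markers at least 4-fold higher than Dclk1+ normal cells, with the matrilysin gene Mmp7 at 6.60. The part of these lineages in the bile acid gene differences was not tested. Of 7 hepatocyte markers 0 were 4-fold apart in the tumor pair and 1 was lower in the normal pair, the apolipoprotein gene Apoc3 (-4.82; 379.4 in Dclk1+ and 9755 in Dclk1-), which enterocytes also express and which was at -4.10 in Dclk1- tumor against normal cells. Ttr, the transthyretin gene, was at 3.20 in Dclk1+ tumor against normal cells (676 in tumor, 15.2 in normal). Alb, which encodes albumin, was listed at 15.6 for Dclk1+ tumor cells, 49.2 for Dclk1- tumor cells and 3.11 for Dclk1- normal cells. Slc10a1, the bile acid uptake transporter of hepatocytes, did not exceed 7.0 in any sample. Leukocyte markers summed to between 42.4 and 224.8 over the 4 samples. Those of stroma and endothelium summed to 235.7 in Dclk1+ and 598 in Dclk1- tumor cells, and to 41.1 in Dclk1+ and 30.6 in Dclk1- normal cells. Of these, 2 of 4 were at least 4-fold higher in Dclk1- tumor than in Dclk1- normal cells, and 0 were lower. They were Vim (342.8 in tumor and 15.2 in normal) and Acta2, which was not above background in normal and at least 4.01-fold higher in tumor. The part of stroma in the bile acid gene differences was not tested.

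**Figure D4:**
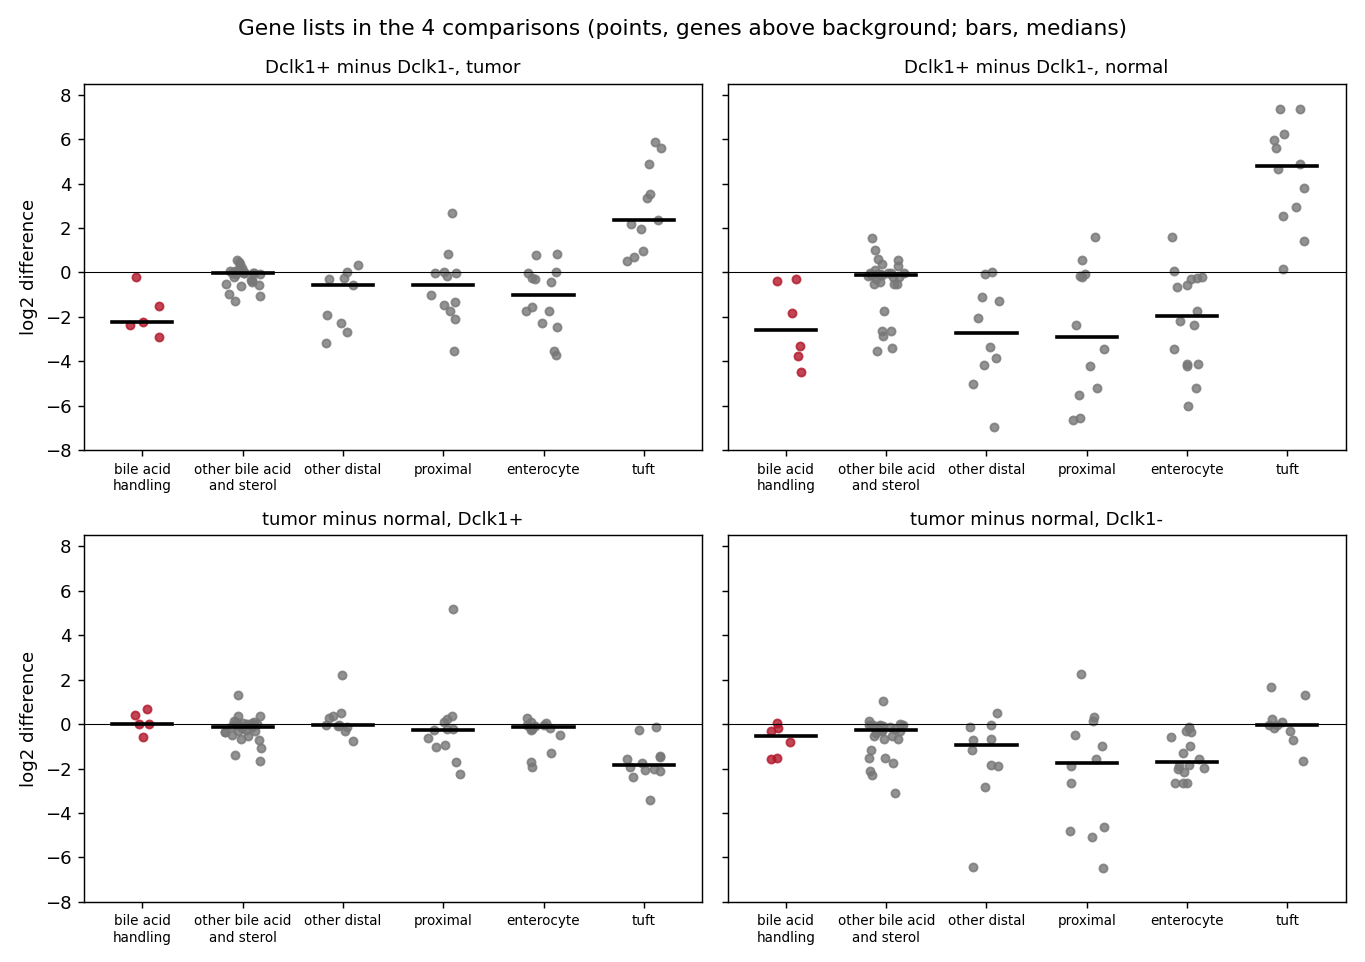
Log2 differences of the genes above background in 6 lists (points) with list medians (bars), in the 4 comparisons. Bile acid handling genes are red and the other lists grey. In normal epithelium the medians were -2.58 for bile acid handling, -2.73 for other distal genes, -2.91 for proximal genes and -1.96 for enterocyte markers, against 4.78 for tuft markers.

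The 4 most variable bile acid genes were not alike in all respects. Likeness was measured as the root mean square distance, over the 4 samples, between log2 levels centred on each gene's mean, so that a smaller value is a closer pattern. Slc51a and Slc51b were 0.35 apart, Slc51b and Fabp6 0.41, and Slc51a and Fabp6 0.51. Slc10a2 lay 0.87 to 1.02 from the other 3.

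Among 869 genes that were above background on at least 1 array and spanned at least 4-fold, the closest to Slc51b were Muc3 (0.17), Clec2h (0.21) and Creb3l3 (0.28), a membrane-bound transcription factor of liver and gut. The closest to Fabp6 were Lypd8 (0.16), the alanine aminotransferase gene Gpt (0.21) and the acute-phase gene Saa2 (0.26). Slc51a was closest to Pnp, a purine nucleoside phosphorylase gene (0.17), Creb3l3 (0.19) and the goblet peptide gene Tff3 (0.24). Slc10a2 was closest to Dstn, which encodes the actin-severing protein destrin (0.15), the peroxiredoxin gene Prdx6 (0.20) and Gstk1, a glutathione transferase gene (0.24). Slc10a2 itself spanned 1.89 log2, slightly less than the 4-fold asked of the candidates. Fgf15 and Nr1h4 spanned only 0.39 and 0.31 log2, so no likeness to candidates of 4-fold span is given for them. With 4 samples a close pattern is easily met, and the 4 comparisons share arrays, since each array enters 2 of them.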

How the data were processed

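Per the labels' protocols, minced normal mucosa or tumors were treated with collagenase, GFP-expressing cells were sorted for the Dclk1+ tumor sample, and RNA was amplified with an amino allyl kit and labelled with Cy5. The labels give no gate for the other 3 samples. Per the file headers, the scanner values are median spot intensities, linear in brightness, that combine up to 3 gains of the scanner. The authors' deposited series table has intensities that are a straight line of the spot intensity (Pearson's r of 1.0 on each array), with a constant near the blank spots' mean subtracted and column medians of 25.0 for both Dclk1+ samples, 24.99 for Dclk1- tumor and 25.01 for Dclk1- normal. It leaves dim probes empty, and the labels do not state its scale.

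Spot intensities were corrected with normexp (offset of 50) in limma 3.58.1 under R 4.3.3, without the local background, which followed the spot (correlation of logs 0.921 to 0.979). Control spots and 4 flagged spots (3 on the Dclk1- tumor array, 1 on the Dclk1- normal array) were dropped, and arrays were quantile normalized on the log2 scale. The offset compresses differences of dim genes. Probes were named from the platform table with symbols updated through GRCm38.p6 RefSeq (16631 probes named). Where a gene had several probes, the brightest was used. The steps were tested on data simulated from the Dclk1- normal array, with changes in bright genes only. That test did not cover changes in dim genes or scaling between unlike arrays. A fold called 4-fold needs 1 of the 2 arrays above background. Beside the 6 genes and Dclk1, the text names up to 4 genes a list and comparison, those with the largest differences of 4-fold or more, and the 3 closest patterns (not given for Fgf15 and Nr1h4). Genes singled out after their values were seen are named too, as are the enterocyte markers Slc15a1, Rbp2 and Treh for being below background. The genes and lists were chosen with earlier results of these data known. Alternatives were an offset of 16, subtraction of the blank mean or the local background, median and 75th percentile scaling, the authors' values, a 2-fold threshold and other filters on dim probes.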

Additional observations from a re-analysis of the deposited data

Results flagged for a closer look

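Tumor minus normal ran in opposite directions in the 2 kinds of sorted cell for both exporter subunits, with 1 array in each group. Slc51a had log2 differences of 0.68 in Dclk1+ and -1.55 in Dclk1- cells, and Slc51b of 0.02 and -0.81. The difference between Dclk1+ and Dclk1- cells was not tested. The opposition of Slc51b rests on a value near 0: in Dclk1+ cells it was at -0.04 with median scaling, -0.06 with 75th percentile scaling, -0.20 with the authors' values and -0.95 with the local background subtracted. Relative to the median over all genes, the authors' values put Slc51b at 0.17 in Dclk1+ and -0.59 in Dclk1- cells. Slc51a was at -0.51 in Dclk1+ cells with the local background subtracted and between 0.67 and 0.98 under the other 5 settings.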

How the results depend on the processing

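Of the 6 member differences of 4-fold or more, 35 of the 36 values under the other background corrections, scalings and the authors' values kept their direction and stayed past 4-fold. The exception was Slc51a in the tumor pair, at 0.46 with the local background subtracted, where that spot's background exceeded its signal. Counts of members at least 4-fold lower were 3 in the tumor pair, 3 in the normal pair and 0 between Dclk1- tumor and Dclk1- normal cells. With the blank mean subtracted they were 5, 6 and 1. With the authors' values the normal pair gave 6 and the Dclk1- tumor against normal pair 1, which also gave 2 with the local background subtracted or at 2-fold. The 1 call was Nr1h4, both with the authors' values (-3.14) and with the blank mean (-2.62). Nr1h4 was also among the 6 of the normal pair (-2.98 and -2.62). These calls rest on its Dclk1- normal sample alone. Where the authors' values were empty, the lowest value listed for a gene on that array was used. The calls gained with the local background were Slc51a (-5.30) and Fabp6 (-2.13). Over all genes, 35, 277, 54 and 161 were 4-fold lower in the tumor pair, the normal pair, the Dclk1+ samples (tumor against normal) and the Dclk1- samples (likewise). The blank mean gave 520, 993, 514 and 708, the authors' values 417, 922, 857 and 1074, an offset of 16 gave 76, 424, 112 and 262, and the local background 64, 178, 119 and 217. In the tumor pair 39.8% of 4-fold calls were lower, against 55.7% with median scaling and 57.2% with the blank mean, and for tumor against normal in Dclk1+ cells 26.5%, against 38.4% with median and 41.4% with 75th percentile scaling (92 genes lower), 37.6% with the blank mean, 52.8% with the authors' values and 53.4% with the local background. In Dclk1- cells the local background gave 64.6%, against 52.8% in the reported setting. No paired analysis was possible because each group holds 1 array, and for the same reason no array could be left out. Depth cannot be counted on arrays; signal over background limits Fgf15 and Nr1h4.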
